A study of Mus musculus with 6 samples.

Results

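The genes described here encode enzymes that write and erase methyl and acetyl groups on histones: lysine and arginine methyltransferases, lysine demethylases, acetyltransferases, zinc-dependent deacetylases and sirtuins. They were taken by gene symbol (Kdm, Kmt, Setd, Suv39, Suv420, Ezh, Nsd, Prmt, Hdac, Kat and Sirt genes), leaving out Kmt2a, Kdm5d and the class IIa deacetylase genes Hdac4, Hdac5, Hdac7 and Hdac9. This gave 70 of the 18193 genes on the array, each read by its brightest probe set, and 68 of the 70 were bright enough to be tested. The cells were sorted mouse bone marrow cells carrying MLL-AF9, a leukaemia fusion oncogene. In MLL-AF9/Mn1null cells (3 arrays) Mn1, the gene of a transcriptional cofactor, had been deleted with CRISPR-Cas9, and MLL-AF9/Mn1wt cells (3 arrays) had kept it. Both groups had received an EGFP control vector and grew with interleukin 3, interleukin 6 and stem cell factor, without further treatment. The sources used here do not give the age and strain of the mice, the number of clones or whether replicates were separate cultures. The spread behind each p-value is thus that among these arrays and may be technical.

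Histone lysine methylation is read according to its position. Methylation of H3K4 marks promoters and enhancers in use, that of H3K36 lies in transcribed regions, and that of H3K9 and H3K27 marks silenced chromatin. Acetylation loosens chromatin and deacetylases remove it, and both kinds of enzyme work mostly as parts of large complexes. In leukaemias driven by MLL fusions the fusion lacks the methyltransferase domain of MLL1, and the leukaemic cells are known to depend on several chromatin enzymes, among them the demethylase KDM1A and the Polycomb methyltransferases EZH1 and EZH2.

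The stretches just upstream of 4 genes are shown for reference, because these were the genes with the largest fall (Suv39h2), the next largest fall (Sirt1) and the largest rise (Kdm3a), and Ezh2 as the Polycomb methyltransferase. Each is the 250 bases before the annotated transcript start from RefSeq (GRCm38.p6), written 5′ to 3′ on the gene's strand. Suv39h2 lies at chr2:3474987-3475236, minus strand, Sirt1 at chr10:63339036-63339285, minus strand, Ezh2 at chr6:47595031-47595280, minus strand, and the first of 3 windows listed for Kdm3a at chr6:71632918-71633167, minus strand. Capitals mark matches, on either strand, to a CCAAT box (CCAAT), an E-box (CACGTG) or an E2F motif (TTTCGCG or TTTGGCG), which were searched after the values had been seen.
Suv39h2: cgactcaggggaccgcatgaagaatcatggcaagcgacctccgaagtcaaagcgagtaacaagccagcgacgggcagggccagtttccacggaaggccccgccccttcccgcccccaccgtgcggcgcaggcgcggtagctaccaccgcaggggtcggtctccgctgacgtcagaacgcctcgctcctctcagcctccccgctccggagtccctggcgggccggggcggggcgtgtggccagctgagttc
Sirt1: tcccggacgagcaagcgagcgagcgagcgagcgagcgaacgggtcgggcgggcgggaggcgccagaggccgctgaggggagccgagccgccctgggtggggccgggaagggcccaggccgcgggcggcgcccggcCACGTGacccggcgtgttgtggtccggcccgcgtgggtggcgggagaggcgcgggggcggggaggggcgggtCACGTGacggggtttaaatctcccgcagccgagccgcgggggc
Ezh2: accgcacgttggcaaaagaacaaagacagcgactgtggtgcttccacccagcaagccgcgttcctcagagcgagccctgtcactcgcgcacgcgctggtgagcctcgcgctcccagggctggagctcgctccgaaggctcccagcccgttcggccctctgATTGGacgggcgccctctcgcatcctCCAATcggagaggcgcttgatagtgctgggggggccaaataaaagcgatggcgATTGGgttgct
Kdm3a: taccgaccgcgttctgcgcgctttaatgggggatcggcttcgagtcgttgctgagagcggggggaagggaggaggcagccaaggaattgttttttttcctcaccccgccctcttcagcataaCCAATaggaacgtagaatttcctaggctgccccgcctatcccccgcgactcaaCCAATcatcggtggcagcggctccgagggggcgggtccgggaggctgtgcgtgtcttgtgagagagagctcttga
The Ezh2 window held 3 CCAAT matches, the window shown for Kdm3a 2 (its other 2 windows hold 0), and that of Sirt1 2 E-box matches, while these letters do not occur in the Suv39h2 window. A window was listed for 55 of the 70 genes. A CCAAT match occurred for 9 of 17 genes higher in Mn1null, for 7 of 16 lower and for 11 of 20 that did not pass, against 37.5% of all 27025 genes with a window. An E2F match occurred for 1 of 17 genes higher in Mn1null, Hdac6, and for 1 of 16 lower, Kmt5a, against 2.22% of all genes, and an E-box match for 1 of 17 higher, 2 of 16 lower and 3 of 20 that did not pass, against 6.86%. No E2F match occurred among the 20 that did not pass. A match is a description of the letters only.

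Values are log2 signals, so a difference of 1 is a doubling, and each difference is Mn1null minus Mn1wt from limma fitted across all 14680 genes tested, with Benjamini-Hochberg adjustment and a threshold of 0.05. Array medians lay between 5.17 and 5.23. Correlations between arrays, over tested genes, were 0.9975 to 0.9981 within groups and 0.9683 to 0.9692 between them. The bacterial labelling controls were lower in Mn1null at their 5′ probe sets, at 6.47 ± 0.059 in Mn1null cells and 7.32 ± 0.10 in Mn1wt cells (SD, n = 3 each). Their 3′ probe sets were at 8.45 ± 0.079 in Mn1null cells and 8.75 ± 0.13 in Mn1wt cells, a difference of -0.30 against -0.85 at the 5′ probe sets, and the hybridisation controls differed by -0.094. The part of these controls in the results below was not tested. Of 5 blood cell markers, all lay above the filter and summed to 24946 to 25118 linear signal units in Mn1null cells and 19417 to 19786 in Mn1wt cells, and 3 of the 5 were higher in Mn1null: Cd53 (0.71), Laptm5 (0.45) and Spi1 (0.19). Ptprc (0.031) and Coro1a (0.096) did not pass. Of 6 B cell markers, 5 were on the array and 4 above the filter, with sums of 158.1 to 174.0 in Mn1null cells and 199.97 to 203.97 in Mn1wt cells. Of 6 T cell markers, likewise 5 and 4, sums were 225.8 to 248.8 in Mn1null cells and 221.6 to 234.0 in Mn1wt cells. The 6 markers of stroma and endothelium, 5 above the filter, summed to 141.8 to 156.5 in Mn1null cells and 155.8 to 162.0 in Mn1wt cells, and 3 of 5 erythroid markers, 2 above the filter, to 268.1 to 292.1 in Mn1null cells and 207.5 to 219.9 in Mn1wt cells. Among B cell markers Cd79b was lower (-0.91), while Cd79a (0.18), Ebf1 (0.22) and Pax5 (0.098) did not pass. Of the erythroid markers Epor was higher (0.43) and Alas2 (-0.016) did not pass. No T cell, stromal or endothelial marker tested passed, and the part of these markers in the results was not tested. In bulk samples, fewer cells of a type and less RNA per cell cannot be told apart.

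Deletion of Mn1 went with many small differences among the chromatin enzyme genes and, on their brightest probe sets, with none of 2-fold or more. Of the 68 genes tested, 22 were higher and 18 lower in Mn1null, so 40 (58.8%) passed, against 48.8% of all genes tested (23.2% higher and 25.6% lower). The strongest fall was that of Suv39h2, 1.96-fold, and the strongest rise that of Kdm3a, 1.64-fold. A second probe set of Suv39h2 gave -1.10, which is past 2-fold. A fold of at least 2 was reached by 0 of the 68, against 6.08% of all genes, and a fold of at least 1.5 by 7 (10.3%), against 15% of all genes. For 53 genes (77.9%) the ranges of the groups were separate, which held for 57.7% of all genes. The median difference was 0.044 in these genes and -0.0053 in all genes. The enzyme genes were brighter than genes at large, with a median signal of 8.88 against 7.60, and among genes above the 50th percentile of signal the share that passed was 63.2% of the 68 and 61.6% of all 11450. At that signal level the enzymes as a whole stood near the background. The shares of single classes and lists below are set against all genes tested and were not matched for signal.

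**Figure D1:**
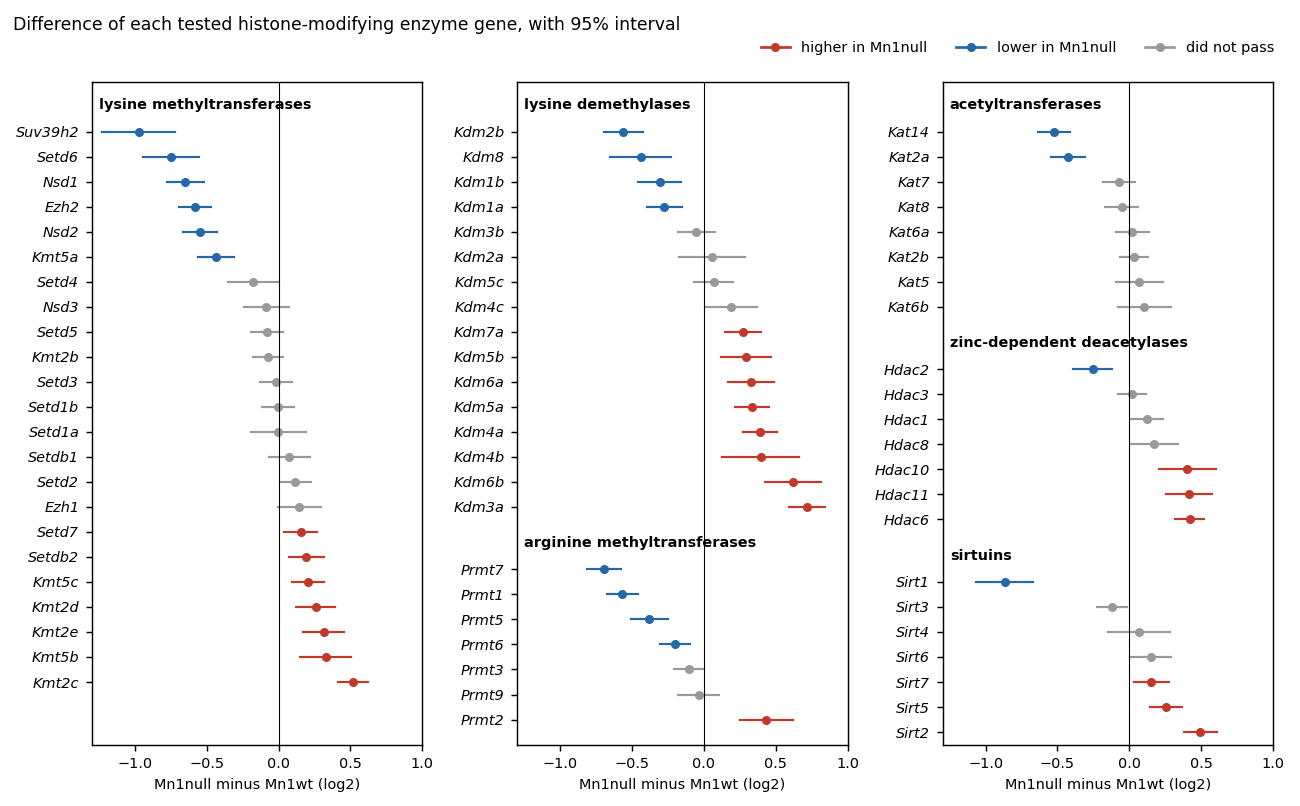
Difference of each of the 68 genes tested, Mn1null minus Mn1wt on the log2 scale, with its 95% interval from limma, by enzyme class. Red points are higher in Mn1null, blue points lower, and grey points did not pass; no point lies beyond -1 or 1.

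**Figure D2:**
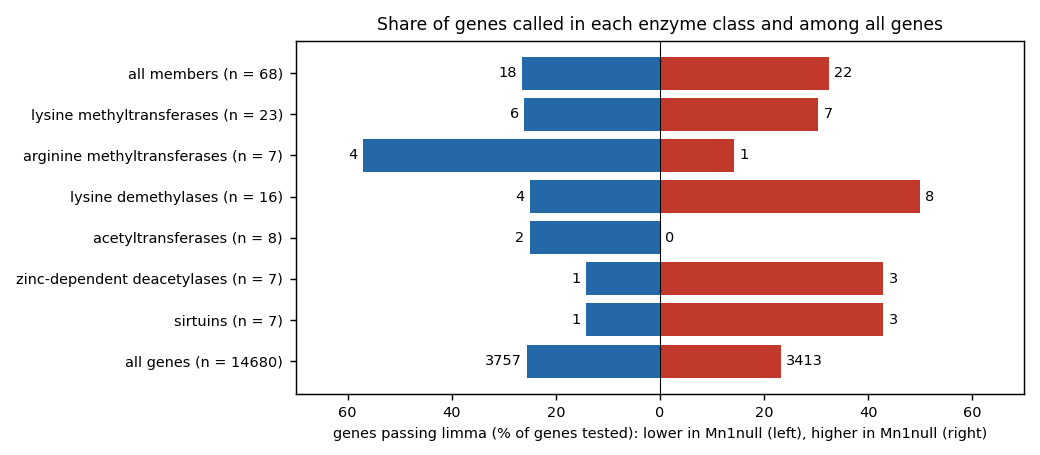
Share of genes passing limma in each enzyme class, in all enzyme genes and in all genes tested, lower in Mn1null to the left and higher to the right, in percent of the genes tested; the number at each bar is the count of genes. Demethylases had 8 of 16 genes higher in Mn1null, against 23.2% of all genes, and arginine methyltransferases 4 of 7 lower, against 25.6%. Of those 8, Kdm4a, Kdm5a, Kdm6a and Kdm7a did not pass with the mean over probe sets. Classes were not matched to all genes for signal.

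The H3K4 group held 7 genes, Kmt2e among them by its relation to the KMT2 genes. Of these, 4 were higher in Mn1null (57.1%, against 23.2% of all genes). A fall passed for 0 of the 7 (0 also at an unadjusted p under 0.05), against 25.6% of all genes. The rises of Kmt2e and Setd7 were not kept when their probe sets were averaged. Kmt2c, one of the enzymes that methylate H3K4 at enhancers, had signals of 9.28, 9.26 and 9.31 in Mn1null cells and 8.74, 8.74 and 8.81 in Mn1wt cells. All Mn1null arrays lay above all Mn1wt arrays, with a difference of 0.52 ± 0.045 (SE, limma adjusted p = 9.57e-05), and 1 other probe set was higher by 0.61, although 2 more gave 0.012 (adjusted p = 0.951) and 0.13 (adjusted p = 0.367). Its paralog Kmt2d was higher by 0.26 (0.13 and not past the threshold on another probe set), Kmt2e, which has a SET domain but no established methyltransferase activity, by 0.31, and Setd7, which adds 1 methyl group to H3K4 and to other proteins, by 0.16. The Kmt2e value rests on the choice of probe set: of 4 others above the filter, 1 gave 0.29 (adjusted p = 0.0243), 1 gave -0.65 (adjusted p = 0.0110), and the mean over its probe sets gave 0.015 (adjusted p = 0.903). The Setd7 call was lost without any 1 of 5 arrays, with median centring (adjusted p = 0.0810) and without a filter (0.0510), and a dimmer probe set gave -0.26 (adjusted p = 0.0991). The differences of Setd1a (-0.0013, 95% interval -0.19 to 0.19) and Setd1b (-0.0048, -0.11 to 0.10), whose proteins methylate H3K4 at promoters, and of Kmt2b (-0.074, -0.18 to 0.032) did not pass.

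The 3 H3K9 methyltransferase genes of these families, whose enzymes build heterochromatin, did not move together. Suv39h2, which trimethylates H3K9 at heterochromatin, had signals of 7.25, 7.16 and 7.06 in Mn1null cells and 8.02, 8.01 and 8.36 in Mn1wt cells. The groups lay far apart, and 1 Mn1wt array stood above the other 2. The difference was -0.97 ± 0.11 (SE, limma adjusted p = 2.85e-04), and both other probe sets of the gene were lower as well (-1.10 and -0.41). Setdb2 was higher by 0.19 (limma adjusted p = 0.0189), a call lost without any 1 of 4 arrays, and Setdb1, which silences endogenous retroviruses, differed by 0.073 (95% interval -0.069 to 0.22) and did not pass. Suv39h1 was not analysed here. Of the H3K9 methyltransferase genes with other names, Ehmt1 was lower by 0.26 (limma adjusted p = 0.00317), while Ehmt2 (-0.068) did not pass.

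Of the catalytic subunits of Polycomb repressive complex 2, Ezh2 was lower and Ezh1 did not pass. Ezh2, the form that is abundant in dividing cells, had signals of 10.66, 10.60 and 10.70 in Mn1null cells and 11.25, 11.21 and 11.24 in Mn1wt cells. The Mn1wt arrays were nearly equal, and all lay above the Mn1null arrays, with a difference of -0.58 ± 0.047 (SE, limma adjusted p = 6.86e-05). Ezh1, the form known to persist in resting cells, differed by 0.14 (95% interval -0.0053 to 0.29, limma adjusted p = 0.102), which did not pass except without Mn1wt replicate 3 (0.19, adjusted p = 0.0442), and its other probe set gave -0.088. Of 9 other genes of this complex, 5 were lower in Mn1null (55.6%, against 25.6% of all genes). A rise passed for 0 of the 9 (0 also at an unadjusted p under 0.05), against 23.2% of all genes. The median difference of the 9 was -0.23, against -0.0053 for all genes. Their median signal was 10.73 against 7.60, and the shares were not matched for signal. Suz12, a core subunit needed for activity, was lower by 0.58, and the accessory gene Phf19 averaged 6.01 ± 0.21 in Mn1null cells and 6.70 ± 0.060 in Mn1wt cells (SD, n = 3 each). The core subunit gene Eed (-0.23) and the histone-binding subunit genes Rbbp4 (-0.23) and Rbbp7 (-0.29) were lower by less, while Jarid2 (-0.086), Mtf2 (-0.048), Aebp2 (0.049) and Phf1 (0.020) did not pass.

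Both KDM6 genes, whose enzymes remove the Polycomb mark from H3K27, were higher. Kdm6b, an inducible enzyme of myeloid cells, had signals of 8.57, 8.43 and 8.62 in Mn1null cells and 7.92, 7.79 and 8.05 in Mn1wt cells. The groups did not overlap, the difference was 0.62 ± 0.082 (SE, limma adjusted p = 7.36e-04), and the other probe sets gave 0.23 (adjusted p = 0.0521) and -0.012 (adjusted p = 0.951). Kdm6a, which also acts in the complexes of KMT2C and KMT2D, had signals of 9.90, 9.98 and 9.78 in Mn1null cells and 9.63, 9.48 and 9.57 in Mn1wt cells, a difference of 0.33 ± 0.066 (SE). That call was lost with the mean over its probe sets (0.092, adjusted p = 0.453). Its dimmer probe sets gave 0.19, -0.085 and -0.067.

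**Figure D3:**
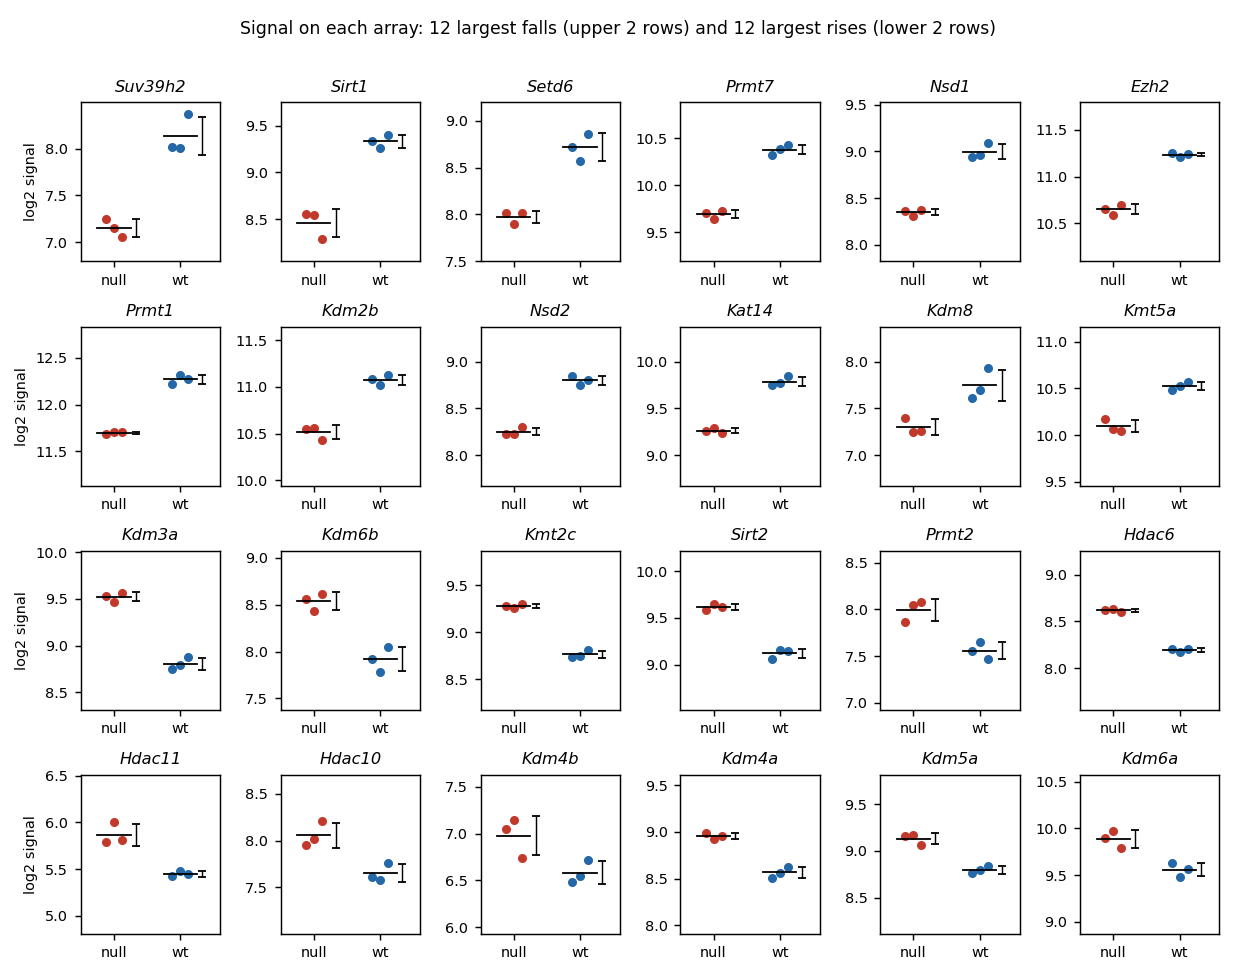
Log2 signal on each array (points), with the group mean (line) and SD (bar at the side), for the 12 genes with the largest falls and the 12 with the largest rises past the threshold; Mn1null is on the left and Mn1wt on the right of each panel, and every panel spans the same 1.7 log2 units. In every panel the points of the groups do not overlap, and Kdm4b has the widest spread among its Mn1null arrays.

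H3K36 methyltransferases of the NSD family were lower for 2 of 3 genes. Nsd1, which dimethylates H3K36, had signals of 8.36, 8.31 and 8.37 in Mn1null cells and 8.94, 8.97 and 9.09 in Mn1wt cells. Nsd2, which makes the same mark, had signals of 8.23, 8.22 and 8.30 in Mn1null cells and 8.84, 8.75 and 8.81 in Mn1wt cells. In neither gene did the groups overlap. The differences were -0.65 ± 0.055 and -0.55 ± 0.049 (SE, limma adjusted p = 8.23e-05 and 1.08e-04). The other probe set of Nsd1 gave -0.69, and of 4 others of Nsd2, 3 were lower by 0.52 to 0.62 and the dimmest gave 0.12 (adjusted p = 0.529). For Nsd3 the probe sets went apart: the brightest gave -0.085 and did not pass, 2 others were higher (0.37 and 0.56), and the mean of all gave 0.17 (adjusted p = 0.0478). Setd2, the enzyme that trimethylates H3K36, differed by 0.12 (95% interval 0.0081 to 0.23) and did not pass, but did with quantile normalization (0.14, adjusted p = 0.0254) and when genes under the 50th percentile were left out (adjusted p = 0.0459).

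Of the H4K20 methyltransferase genes, 1 was lower and 2 were higher. Kmt5a, which adds the first methyl group and is tied to the cell cycle, had signals of 10.17, 10.07 and 10.05 in Mn1null cells and 10.49, 10.52 and 10.57 in Mn1wt cells. It was lower by 1.35-fold, with a difference of -0.43 ± 0.053 (SE, limma adjusted p = 4.82e-04) and -0.46 on its other bright probe set. The genes for the next methyl groups were higher, Kmt5b by 0.33 (adjusted p = 0.00924) and Kmt5c by 0.20 (adjusted p = 0.00939, limma). For Kmt5b, 1 other probe set was also higher (0.33) and 3 did not pass (0.054, -0.11 and -0.056), and the mean of all gave 0.11 (adjusted p = 0.112).

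Of the 4 other SET domain genes, 1 was lower. Setd6, which methylates the NF-kappaB subunit RELA, had signals of 8.01, 7.89 and 8.01 in Mn1null cells and 8.72, 8.58 and 8.87 in Mn1wt cells. The groups did not overlap, and the Mn1wt arrays were the more spread, with a difference of -0.75 ± 0.081 (SE, limma adjusted p = 2.71e-04), while the other probe sets gave -0.58 and -0.11 (adjusted p = 0.494). Setd3, a histidine methyltransferase of actin, differed by -0.021, Setd4 by -0.18 and Setd5 by -0.080, and these did not pass. A second probe set was lower for Setd5 (-0.56, adjusted p = 0.00027) and for Setd3 (-0.39, adjusted p = 0.0239), and 1 more of Setd5 gave 0.23 (adjusted p = 0.103). With the mean over probe sets these 2 genes passed, at -0.14 for Setd5 and -0.21 for Setd3, and Setd4 passed with quantile normalization (-0.22, adjusted p = 0.0297).

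Arginine methyltransferase genes were mostly lower: 4 of 7 tested fell (57.1%) and 1 rose (14.3%), against 25.6% and 23.2% of all genes. Their median difference was -0.20, against -0.0053 for all genes. This class was also bright, with a median signal of 10.03 against 7.60, and its shares were not matched for signal. Prmt1, which makes most of the asymmetric dimethylarginine of a cell, had signals of 11.69, 11.70 and 11.70 in Mn1null cells and 12.22, 12.32 and 12.27 in Mn1wt cells. Prmt7, which makes monomethylarginine, had signals of 9.70, 9.64 and 9.72 in Mn1null cells and 10.33, 10.39 and 10.43 in Mn1wt cells. The Mn1null arrays of Prmt1 were nearly equal, and in both genes every Mn1null array lay under every Mn1wt array. The differences were -0.57 ± 0.046 for Prmt1 and -0.69 ± 0.050 for Prmt7 (SE, limma adjusted p = 6.75e-05 and 4.07e-05), although a dim second probe set of Prmt7 gave -0.045 (adjusted p = 0.764). Prmt5, the main enzyme of symmetric dimethylarginine, was lower by 0.38 (limma adjusted p = 9.60e-04), and Prmt6, which methylates histone H3 at arginine, by 0.20. Prmt2, a weakly active coactivator of nuclear receptors, was the exception, with signals of 7.86, 8.05 and 8.08 in Mn1null cells and 7.55, 7.66 and 7.48 in Mn1wt cells. It was higher by 0.44 ± 0.077 (SE, limma adjusted p = 0.00283) and by 0.96 on its other bright probe set. Prmt3 (-0.10) and Prmt9 (-0.037) did not pass, but Prmt3 did when its probe sets were averaged (-0.18, adjusted p = 0.00897) and with an intensity trend (adjusted p = 0.0260). Prmt8 was under the filter, with 3.61, 3.84 and 3.72 in Mn1null cells and 3.70, 3.67 and 3.78 in Mn1wt cells.

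Of 16 lysine demethylase genes tested, 8 were higher (50%) and 4 lower (25%), against 23.2% and 25.6% of all genes. Their median difference was 0.23. The rises of Kdm4a, Kdm5a, Kdm6a and Kdm7a were not kept when their probe sets were averaged. For all of these but Kdm6a the mean took in probe sets under the filter. Kdm3a, which removes H3K9 mono- and dimethylation and is known to be induced by hypoxia, had signals of 9.53, 9.47 and 9.57 in Mn1null cells and 8.75, 8.80 and 8.87 in Mn1wt cells. Every Mn1null array lay above every Mn1wt array, with a difference of 0.72 ± 0.053 (SE, limma adjusted p = 4.58e-05). Its paralog Kdm3b differed by -0.053 (95% interval -0.18 to 0.076) and did not pass. Kdm4a, which removes trimethylation of H3K9 and H3K36, had signals of 8.99, 8.93 and 8.95 in Mn1null cells and 8.51, 8.56 and 8.63 in Mn1wt cells. Kdm4b, which has the same substrates, had signals of 7.04, 7.14 and 6.74 in Mn1null cells and 6.48, 6.55 and 6.71 in Mn1wt cells. The highest Mn1wt array of Kdm4b nearly reached its lowest Mn1null array, while those of Kdm4a stood well apart. Kdm4a was higher by 0.39 ± 0.050 and Kdm4b by 0.39 ± 0.11 (SE, limma adjusted p = 6.11e-04 and 0.0244). The call of Kdm4b was lost without any 1 of 4 arrays and with the replicate number as a block (adjusted p = 0.0597), and that of Kdm4a with the mean over both its probe sets (0.14, adjusted p = 0.0560). The dimmer one lay under the filter. Kdm4c differed by 0.19 (95% interval 0.010 to 0.37) and did not pass, but did with quantile normalization (adjusted p = 0.0294), an intensity trend (0.0174), array weights (0.0320) or without Mn1wt replicate 3 (0.27, adjusted p = 0.00889). Kdm4d, known mainly from testis, was under the filter, with 4.14, 4.03 and 3.60 in Mn1null cells and 4.20, 4.17 and 4.28 in Mn1wt cells.

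Of the H3K4 demethylase genes, Kdm5a and Kdm5b were higher, Kdm1a and Kdm1b lower, and Kdm5c did not pass. Kdm5a, which removes H3K4 trimethylation, had signals of 9.16, 9.17 and 9.07 in Mn1null cells and 8.76, 8.79 and 8.84 in Mn1wt cells, a difference of 0.33 ± 0.050 (SE, limma adjusted p = 0.00133). Its 3 other probe sets above the filter did not pass (0.14, -0.29 and -0.046), and the mean of all gave 0.013 (adjusted p = 0.899). Kdm5b was higher by 0.29 (limma adjusted p = 0.0129), and by 0.53 and 0.52 on its other probe sets above the filter. A further probe set of Kdm5b, under the filter, gave -0.058. Kdm5c differed by 0.069 on the brightest of its probe sets and did not pass, while 1 of 6 others above the filter was higher by 0.61 (adjusted p = 0.00138). The flavin-dependent Kdm1a, which removes mono- and dimethylation of H3K4 together with the corepressor CoREST, was lower by 0.28 (limma adjusted p = 0.00352), and its paralog Kdm1b by 0.31 (limma adjusted p = 0.00565). The second probe set of Kdm1a gave -0.18 (adjusted p = 0.0658).

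Among the remaining demethylases, 2 fell and 1 rose. Kdm2b, which binds CpG islands and recruits a Polycomb complex there, had signals of 10.55, 10.57 and 10.43 in Mn1null cells and 11.09, 11.02 and 11.12 in Mn1wt cells. The groups did not overlap, the difference was -0.56 ± 0.057 (SE, limma adjusted p = 2.08e-04), and the second probe set gave the same -0.56. Kdm8, a JmjC-domain hydroxylase, had signals of 7.40, 7.25 and 7.26 in Mn1null cells and 7.62, 7.70 and 7.93 in Mn1wt cells, a difference of -0.44 ± 0.090 (SE). Kdm7a, which removes methyl groups from H3K9 and H3K27, was higher by 0.27, a call lost with the mean over its probe sets (0.12, adjusted p = 0.0836). Kdm2a differed by 0.057 (95% interval -0.17 to 0.29) and did not pass.

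Of 8 acetyltransferase genes tested, 2 were lower in Mn1null (25%, against 25.6% of all genes). A rise passed for 0 of the 8 (0 also at an unadjusted p under 0.05), against 23.2% of all genes. The other 6 lay between -0.070 and 0.11. The 2 that fell are both subunits of the ATAC complex. Kat2a, an acetyltransferase of ATAC that also works in the SAGA complex, had signals of 9.63, 9.51 and 9.59 in Mn1null cells and 9.98, 9.99 and 10.03 in Mn1wt cells. Kat14, a further subunit of ATAC, had signals of 9.26, 9.29 and 9.24 in Mn1null cells and 9.75, 9.77 and 9.84 in Mn1wt cells. In both genes the groups did not overlap, with differences of -0.43 ± 0.050 and -0.52 ± 0.047 (SE, limma adjusted p = 3.83e-04 and 1.17e-04). The 2 other probe sets of Kat2a did not pass (-0.29 and -0.12), whereas that of Kat14 was lower by 0.44. Kat2b, the paralog of Kat2a, differed by 0.031 (95% interval -0.067 to 0.13) on its brightest probe set, but a dimmer one was higher by 0.53 (adjusted p = 0.00907), and the mean of its probe sets passed (0.24, adjusted p = 0.0161). Kat6a (0.021, 95% interval -0.095 to 0.14) and Kat6b (0.11, -0.076 to 0.29), known as partners in leukaemic translocations, did not pass, nor did Kat5 (0.071), Kat7 (-0.070) and Kat8 (-0.053), the catalytic subunits of further complexes.

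Among the zinc-dependent deacetylases, all 3 genes of class IIb and class IV were higher, and 1 of 4 class I genes was lower. Of all 7, 42.9% were thus higher and 14.3% lower, against 23.2% and 25.6% of all genes. Hdac6, a cytoplasmic enzyme that deacetylates tubulin, had signals of 8.62, 8.63 and 8.60 in Mn1null cells and 8.21, 8.18 and 8.20 in Mn1wt cells. Hdac10, a polyamine deacetylase, had signals of 7.95, 8.01 and 8.21 in Mn1null cells and 7.61, 7.58 and 7.76 in Mn1wt cells. Hdac11, the single class IV enzyme, had signals of 5.789, 6.003 and 5.806 in Mn1null cells and 5.421, 5.484 and 5.449 in Mn1wt cells. The groups did not overlap in any of these genes, and Hdac6 had the tightest groups. The differences were 0.42 ± 0.042, 0.41 ± 0.083 and 0.41 ± 0.068 (SE) in that order, with limma adjusted p of 1.82e-04, 0.00554 and 0.00194. The call of Hdac10 was lost with the mean over its probe sets (0.19, adjusted p = 0.0590). Among the nuclear class I enzymes, Hdac2 was lower by 0.26 (limma adjusted p = 0.00928) and by 0.27 on its other bright probe set. The Hdac2 call was lost with the mean of all 3 (-0.096, adjusted p = 0.329), of which the dimmest lay under the filter. Its paralog Hdac1 differed by 0.12 (95% interval 0.0099 to 0.24), which did not pass but did with quantile normalization (0.17, adjusted p = 0.0204), an intensity trend (0.00765) and a filter at the 50th percentile (0.0448). Hdac3 differed by 0.021 (95% interval -0.078 to 0.12) and Hdac8 by 0.17, and these did not pass, except Hdac8 with array weights (0.20, adjusted p = 0.0423).

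Of the 7 sirtuins, NAD-dependent deacylases, 3 were higher (42.9%) and 1 lower (14.3%), against 23.2% and 25.6% of all genes. Sirt1, a nuclear enzyme that deacetylates histones and p53, had signals of 8.56, 8.54 and 8.29 in Mn1null cells and 9.33, 9.26 and 9.40 in Mn1wt cells. It showed the second largest fall of all 68 genes, with a difference of -0.87 ± 0.083 (SE, limma adjusted p = 1.52e-04), although it was read by a single probe set. Sirt2, a mainly cytoplasmic enzyme, had signals of 9.59, 9.65 and 9.61 in Mn1null cells and 9.06, 9.16 and 9.15 in Mn1wt cells. It was higher by 0.49 ± 0.048 (SE, limma adjusted p = 1.61e-04), with no overlap of the groups. Of the mitochondrial sirtuins, Sirt5, which removes succinyl groups, was higher by 0.26 (0.23 and 0.18, short of the threshold, on 2 other probe sets), while Sirt3 differed by -0.12 and Sirt4 by 0.068 and did not pass. Sirt3 passed with an intensity trend (adjusted p = 0.0378) and when genes under the 50th percentile were left out (0.0391). The nucleolar Sirt7 was higher by 0.15 (limma adjusted p = 0.045), a call lost without any 1 of 5 arrays, without a filter (0.0662), with median centring (0.0919) and with probe sets limited to those made for 1 transcript (0.0532). Sirt6, a chromatin-bound enzyme, differed by 0.15 (95% interval 0.0045 to 0.29) and passed only without Mn1null replicate 1 (0.20, adjusted p = 0.0425).

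Several genes were read more than once, which gives a measure of how far a value depends on the part of the transcript that is read. Of the 40 genes that passed, 25 had at least 1 other probe set above the filter. The other 15 had none, among them Kdm3a, Ezh2, Prmt1, Prmt5, Sirt1, Sirt2 and Hdac6. In 18 of the 25 all others had the same sign, and in 15 at least 1 other passed the same way. For 7 genes at least 1 other had the opposite sign, and for 1 of these, Kmt2e, the opposite difference also passed. All but 1 of the 7, Nsd2, were higher in Mn1null on the brightest probe set. Over these 25 genes, 35 of 47 other probe sets had the sign of the brightest. Where each probe set lies on its transcript was not analysed here.

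**Figure D4:**
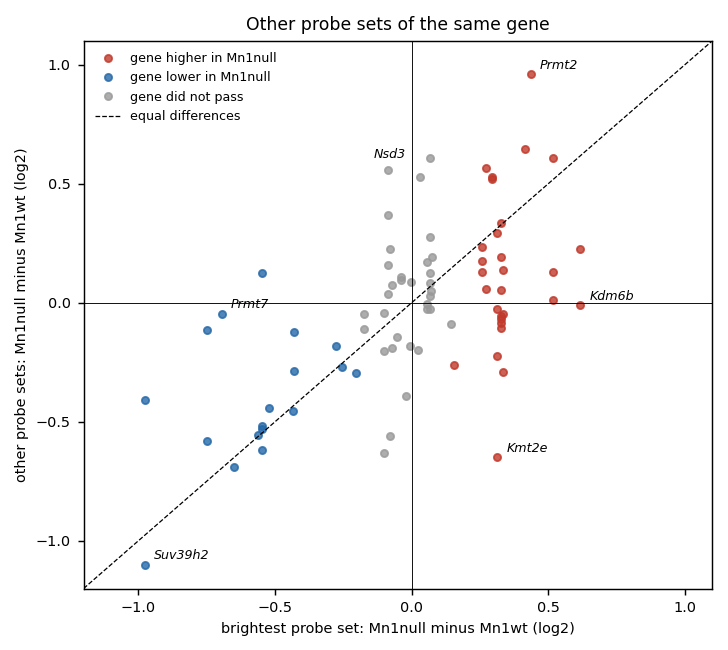
Difference on every other probe set above the filter (vertical axis) against that on the brightest probe set of the same gene (horizontal axis), both Mn1null minus Mn1wt on the log2 scale; the dashed line marks equal differences. Prmt2 and Suv39h2 lie at the upper and lower ends, whereas 1 probe set of Kmt2e lies at -0.65 although the brightest gave 0.31, and 1 of Nsd3 at 0.56 against -0.085.

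The partners of these enzymes, in lists drawn from general knowledge, were more often lower than higher in Mn1null. Of 61, 32 fell (52.5%) and 6 rose (9.84%), against 25.6% and 23.2% of all genes, with a median of -0.18. They were also brighter than genes at large, with a median signal of 9.56 against 7.60. In either direction 62.3% of them passed, near the 61.6% of all genes above the 50th percentile of signal. The split into higher and lower at that signal level was not analysed. Of 10 partners of the COMPASS and MLL complexes, 6 were lower and 1 higher. Ash2l, a core subunit of these complexes, was the exception, at 11.38 ± 0.070 in Mn1null cells and 10.64 ± 0.023 in Mn1wt cells (SD, n = 3 each). It was higher by 0.74 (limma adjusted p = 3.67e-05). Paxip1, a subunit of the KMT2C and KMT2D complexes, was lower by 0.48, and the core subunit gene Rbbp5 by 0.34, while Men1, the gene of menin, differed by 0.0056 and did not pass. Of 15 deacetylase complex partners, 7 were lower and 3 higher. Sap30, a subunit of the SIN3 complex, averaged 10.49 ± 0.055 in Mn1null cells and 11.21 ± 0.034 in Mn1wt cells (SD, n = 3 each), and Tbl1xr1, of the NCoR complex, was lower by 0.47. Chd3 (0.42) and Gatad2b (0.38), both of the NuRD complex, were higher.

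Of 13 genes listed as methyltransferases and demethylases with other names, 9 were lower (69.2%, against 25.6% of all genes). Riox1 (-0.33), Riox2 (-0.44) and Jmjd6 (-0.19) were among the 9, and whether their proteins act as demethylases was not examined here. A rise passed for 0 of the 13 (0 also at an unadjusted p under 0.05 with limma), against 23.2% of all genes. Carm1, an arginine methyltransferase, was lower by 0.73, and the lysine methyltransferase genes Smyd2 and Smyd5 by 0.73 and 0.66. Dot1l, the H3K79 methyltransferase on which MLL fusion leukaemias depend, averaged 7.84 ± 0.081 in Mn1null cells and 8.30 ± 0.15 in Mn1wt cells (SD, n = 3 each), and it differed by -0.45 (limma adjusted p = 0.00353). Of 14 acetyltransferases and scaffolds with other names, 5 were lower (35.7%) and 2 higher (14.3%), against 25.6% and 23.2% of all genes. Brpf1, the scaffold of the KAT6A complex, was lower by 0.65, and Hat1, which acetylates newly made histone H4, by 0.62. Ncoa1 (0.24) and Trrap (0.17) were higher, and the coactivator genes Ep300 (0.11) and Crebbp (0.0057) did not pass.

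Proliferation genes were lower in the same Mn1null arrays. All 15 proliferation genes tested were lower in Mn1null, against 25.6% of all genes. Their median was -0.56, with a range of -1.03 for Rrm2 to -0.22 for Pcna. They were bright, with a median signal of 11.71 against 7.60 for all genes, and were not compared with genes of like signal. The falls of Ezh2 (-0.58), Suv39h2 (-0.97), Kmt5a (-0.43), Nsd2 (-0.55) and Prmt1 (-0.57) stand beside these values, and the part of proliferation in them was not tested.

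**Figure D5:**
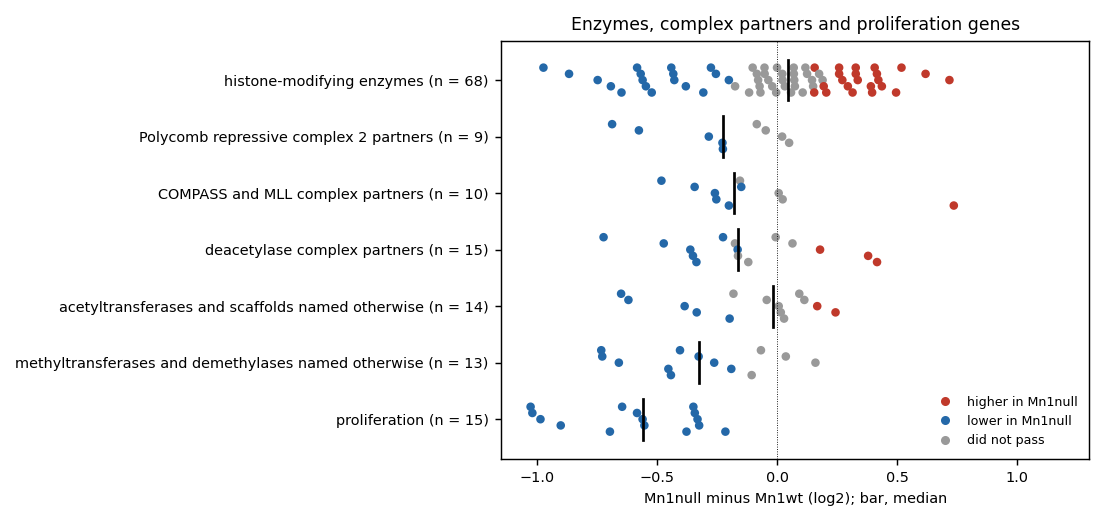
Differences of the 68 enzyme genes and of the genes in each partner list and the proliferation list, Mn1null minus Mn1wt on the log2 scale; each point is a gene, red if higher and blue if lower in Mn1null and grey if it did not pass, and the bar is the median. The enzymes spread to both sides with a median of 0.044, the proliferation genes all lie to the left, and Ash2l is the partner farthest to the right at 0.74.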

How the data were processed

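Total RNA was labelled by in vitro transcription and hybridised to Affymetrix mouse arrays, 3 per group. The deposited values are log2 signals that the authors summarised by RMA, per the submitters' processing notes; they hold no read depth, and the number of arrays limits the precision. Of 45101 probe sets, 34945 matched 1 gene, 932 several, 9160 were unlisted in the platform annotation and 64 were controls. Each gene was read by its brightest probe set. Genes with a mean under the 30th percentile (log2 4.07) were left out, which kept 14680 of 18193. Mn1null minus Mn1wt was fitted with limma 3.58.1 (R 4.3.3) on all 6 arrays and adjusted by Benjamini-Hochberg, and the fit was tested on simulated data. Other probe sets were fitted and adjusted over all probe sets that were not controls, without a filter on signal. Per-array values are given for the 12 largest rises and the 12 largest falls past the threshold without overlap, paralog pairs with both differences, the other genes by difference or count, and up to 2 genes per direction of each partner list; further values were named after they were seen. The members and lists were chosen with earlier results of these data known.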

Additional observations from a re-analysis of the deposited data

How the results depend on the processing

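The 40 genes past the threshold numbered 36 to 40 when each array was left out in turn (18 to 22 higher, 18 to 18 lower), against 6386 to 6683 of all genes, and 46 to 50 partner genes. They numbered 35 at a threshold of 0.01, 38 with median centring (20 higher and 18 lower) and 36 with the mean of all probe sets of a gene (16 higher and 20 lower, against 22 and 18). Of the 40 calls, 28 were kept with any array left out and in every setting at the 0.05 threshold that tested the gene. The setting limited to probe sets made for 1 transcript tested only 61 enzyme genes. Prmt1, Prmt5 and Sirt2, which are among the 28, had no such probe set and were not tested there. Counting only sign changes in which the main or the alternative value passed, the sign was reversed with the mean of probe sets for Nsd3 (0.17) and Setd7 (-0.054), and on other probe sets for Kdm5a (-0.29 and -0.046), Kdm6a (-0.085 and -0.067), Kdm6b (-0.012), Kmt2e (-0.028, -0.65 and -0.22), Kmt5b (-0.11 and -0.056), Nsd2 (0.12), Nsd3 (0.37 and 0.56) and Setd7 (-0.26); the cause was not tested. Signs also changed where neither value passed, with the mean of probe sets for Kat6a (-0.098), Kdm2a (-0.013), Prmt9 (0.056) and Setd1a (0.042), and on other probe sets for Ezh1, Kat6a, Kat7, Kdm2a, Kdm5c, Nsd3, Prmt9, Setd1a and Setd5. With the replicate number as a block, 39 enzyme genes and 6943 of all genes passed. Deviations of same-numbered arrays correlated at -0.039, 0.109 and 0.080. The sources used here do not say whether same-numbered arrays shared a batch or culture. Correlations from so few arrays cannot decide this, and a shared batch or culture was not tested.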
